A study of Mus musculus with 12 samples.

Results

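Acyl-CoA thioesterases and the enzymes of fatty acid oxidation were followed in C2C12 myotubes exposed to hydrogen peroxide (H2O2) with or without the ginsenoside Rc (gRc). The genes are Acot1 and Acot2 (thioesterases), Cpt1a and Cpt1b (entry of fatty acids into mitochondria), Acadm, Acadl, Acadvl and Hadha (beta-oxidation), the nuclear receptor gene Ppard and the kinase gene Pdk4. They are 10 of the 48795 genes in the files and were matched by symbol to their Ensembl identifiers. All 10 passed the filter on low counts that 14838 genes passed. They were selected on expected counts, whose values in all 4 groups were known when the genes were chosen. Their values and the calls on them are therefore a description, and no p-value is given for any of them.

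The C2C12 line, from mouse muscle, grows as single myoblasts and forms fused myotubes in medium with little serum. Cells were differentiated for 5 days in 2% horse serum, and all groups share this line, this medium and 0.02% DMSO as the vehicle, as the labels describe it. The vehicle group received vehicle for 24 h and the gRc group 10 µM gRc for 24 h. The H2O2 group received vehicle for 18 h and then 0.25 mM H2O2 for 6 h, and the gRc + H2O2 group received 10 µM gRc and then 0.25 mM H2O2 for 6 h. The labels of gRc + H2O2 disagree on the length of the pretreatment, given as 18 h in one field and 24 h in another. Poly(A) RNA was sequenced in 3 libraries per group, 12 in all, and nothing in the labels ties a replicate to a culture of its own. The p-values given for other genes therefore rest on a spread between libraries that may be technical. The cell-type tag of every library reads myoblasts.

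Fatty acids are burned in mitochondria as thioesters of coenzyme A. CPT1 on the outer mitochondrial membrane hands the acyl group to carnitine and is inhibited by malonyl-CoA, acyl-CoA dehydrogenases of different chain-length preference open each round of beta-oxidation, and the trifunctional protein carries long chains through the steps that follow. Acyl-CoA thioesterases work in the other direction: they split an acyl-CoA into free fatty acid and coenzyme A, ACOT1 in the cytosol and ACOT2 in the mitochondrial matrix. PPARδ is a lipid-sensing nuclear receptor of muscle, and PDK4 phosphorylates and switches off pyruvate dehydrogenase, which spares glucose when fat is used. In muscle of fasted or exercised animals many of these genes are known to be switched on together.

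Acot2 and Acot1 are neighbours on the plus strand of mouse chromosome 12 (GRCm38), Acot2 at chr12:83987861-83993873 and Acot1 at chr12:84009490-84018371, with 15616 bases between them. Their coding sequences are identical at 95.3% of 1236 aligned bases, with 58 differences, and the longest stretch without a difference is 273 bases. How reads of this pair were divided bears on the separate values of Acot1 and Acot2, so the window of 60 coding bases with the most differences and a stretch with none are shown. Both lie in exon 3 of each gene, at chr12:84016942-84017001 for the Acot1 window and chr12:83992664-83992723 for the Acot2 window, and capitals mark the 13 differing bases.
Acot1 window: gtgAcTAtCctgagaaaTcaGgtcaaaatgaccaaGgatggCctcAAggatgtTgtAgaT
Acot2 window: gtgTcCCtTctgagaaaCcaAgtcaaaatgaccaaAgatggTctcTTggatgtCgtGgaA
Acot1 and Acot2, identical stretch: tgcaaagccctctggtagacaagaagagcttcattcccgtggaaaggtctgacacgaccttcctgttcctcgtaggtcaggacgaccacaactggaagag

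The identical stretch of 100 bases lies at chr12:84017006-84017105 in Acot1 and chr12:83992728-83992827 in Acot2. A fragment from it fits both genes, and a fragment that reaches into the window before it fits only its own gene. Of all 100-base windows, 359 occurred in both transcripts, which is 17.1% of those of Acot2 and 16.5% of those of Acot1. At 205 bases, about the median fragment length of the libraries, 90 windows were shared, or 4.52% of Acot2 and 4.35% of Acot1. RSEM, the program the authors used, splits shared fragments between genes in proportion to the evidence from unshared ones. The expected counts of Acot1 and Acot2 summed to a whole number within 0.005 in 11 of 12 libraries and within 0.02 in the other, so the fractions left by the division cancel within this pair. Acot1 also shares 100-base windows with Acot3, Acot4, Acot5 and Acot6 of the same cluster, 21.9% of its windows with any of the cluster including Acot2, whereas Acot2 shared windows with Acot1 alone. The transcript used for these comparisons is 2272 bases for Acot1 in GENCODE M21, but the files hold a model of 1559 bases for it; Acot2 is 2196 bases in both.

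Library totals ran from 19274762 to 31409066 expected counts. The first principal component (43.1% of the variance) set vehicle replicate 1 at one end (-68.6) and vehicle replicate 3 (82.3) and gRc replicate 3 (84.2) at the other. Mean fragment length ran from 175.5 bases in vehicle replicate 1 to 246.9 in gRc replicate 3. The fibroblast marker list summed to between 419.65 and 2409 TPM in the vehicle libraries, with Col1a1 at 9557 CPM in vehicle replicate 1 against 2037 and 949 CPM in the others. All 5 markers of differentiated muscle were detected and 0 of 5 were called in any comparison; their summed level was 6961 to 8938 TPM with vehicle, 7051 to 9720 with gRc, 5359 to 5805 with H2O2 and 6459 to 7033 with gRc + H2O2. The 4 markers of cycling cells and myoblasts summed to 67.2 to 96.2 TPM with vehicle, 77.9 to 101.1 with gRc, 53.2 to 74.9 with H2O2 and 51.9 to 62.9 with gRc + H2O2. Of these only Pax7, a transcription factor of muscle precursor cells, was called: it fell with H2O2 against vehicle (log2 -1.27, edgeR adjusted p = 0.00352) and with gRc + H2O2 against gRc (log2 -1.15, edgeR adjusted p = 0.00563). Of the 6 adipocyte markers only Pparg passed the filter and Cidec was at 0 in 12 of 12 libraries, and 0 of 4 hepatocyte markers passed. The part of these differences in the results below was not tested. In bulk RNA, fewer cells of a type and less RNA per cell cannot be told apart.

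Acot2, the mitochondrial thioesterase gene, rose in both comparisons that add H2O2, by more than any other of the 10 genes. It stood at 15.9, 10.4 and 8.60 CPM (counts scaled to the library size with TMM factors) in vehicle replicates 1, 2 and 3 and at 12.3, 13.4 and 11.01 CPM with gRc. With H2O2 it stood at 79.2, 60.9 and 73.1 CPM, and with gRc + H2O2 at 58.0, 51.0 and 59.8 CPM. Every library with H2O2 was above every library without it. Against vehicle the rise with H2O2 was 6.13-fold (log2 2.62, SE 0.22, n = 3 per group), and against gRc the rise with gRc + H2O2 was 4.60-fold (log2 2.20, SE 0.22). Both calls held in 19 of 19 alternative analyses, with log2 values of 2.32 to 2.91 and 1.87 to 2.28. Without the 3 libraries at the ends of the first component the values were 2.76 and 2.12.

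**Figure D1:**
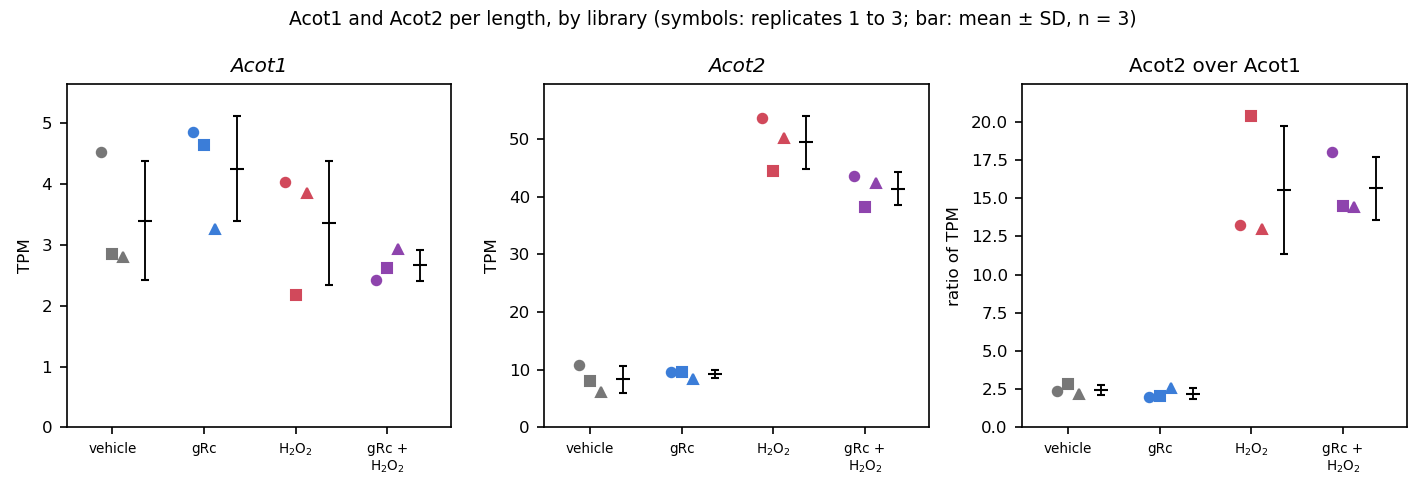
Deposited TPM (abundance per transcript length, scaled within a library) of Acot1 and Acot2 and their ratio in each of the 12 libraries, by group; symbols are replicates 1 to 3 and bars the mean ± SD (n = 3). Acot1 lies between 2.18 and 4.86 TPM throughout, while Acot2 lies between 6.14 and 10.8 TPM without H2O2 and between 38.1 and 53.7 TPM with it.

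Acot1, the cytosolic neighbour, was not called in any comparison. It stood at 4.60, 2.49 and 2.68 CPM with vehicle, 4.21, 4.39 and 2.86 with gRc, 4.06, 2.04 and 3.85 with H2O2 and 2.20, 2.40 and 2.83 with gRc + H2O2. The vehicle and H2O2 libraries overlapped and the log2 fold change was 0.03 (SE 0.32), while all gRc + H2O2 libraries were below all gRc libraries at -0.62 (SE 0.32), which was not called. These values rest on few fragments, 59.8 to 117.3 expected counts per library against 241.3 to 1795 for Acot2. Per length, Acot2 was 1.98 to 2.82 times the TPM of Acot1 in the 6 libraries without H2O2 and 13.0 to 20.4 times in the 6 with it. Its share of the TPM of the pair went from between 66.5% and 73.8% to between 92.9% and 95.3%. With the pair summed as 1 gene, a value that the division of reads between these neighbours cannot change, though reads shared with the other cluster genes can, the log2 fold changes were 2.32 for H2O2 against vehicle and 1.87 for gRc + H2O2 against gRc, both called.

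Of the carnitine palmitoyltransferases, Cpt1a was lower with H2O2 in both backgrounds and Cpt1b was not called in any comparison. Cpt1a, the form first known from liver, stood at 19.6, 37.9 and 42.0 CPM with vehicle and 35.0, 36.8 and 44.2 with gRc. It stood at 16.8, 20.4 and 20.3 CPM with H2O2 and 20.9, 19.98 and 16.9 with gRc + H2O2. Vehicle replicate 1 alone reached down into the H2O2 libraries. The log2 fold change was -0.79 (SE 0.25) for H2O2 against vehicle, not called in the main analysis and called in 7 of 19 alternatives, among them the fit without vehicle replicate 1 (-1.05). Cpt1a fell by 1.01 on the log2 scale (SE 0.25) in gRc + H2O2 against gRc, and all 3 libraries were below all 3 gRc libraries. That call held in 16 of 19 alternatives and was lost without gRc + H2O2 replicate 1 (-1.07), 2 (-1.04) or 3 (-0.92). Cpt1b, the form of skeletal and heart muscle, was the gene with the fewest reads, at 0.444, 1.90 and 1.64 CPM with vehicle, 1.12, 1.58 and 1.77 with gRc, 1.82, 1.90 and 2.15 with H2O2 and 1.77, 1.99 and 2.79 with gRc + H2O2. Its log2 fold changes with H2O2 were 0.53 (SE 0.42) and 0.55 (SE 0.41), neither called.

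The beta-oxidation enzymes were the most abundant of the 10 genes and 0 of 4 were called in any comparison. Of all genes tested, 15.7% were called in each comparison that adds H2O2 and 0% in those that add gRc, so nothing is read from this count. Acadm (medium-chain dehydrogenase) stood at 97.7, 110.2 and 60.7 CPM with vehicle and 102.5, 140.2 and 56.0 with gRc, against 73.6, 75.9 and 90.9 with H2O2 and 71.5, 58.7 and 77.1 with gRc + H2O2. Acadvl (very-long-chain dehydrogenase) stood at 158.1, 140.8 and 85.9 CPM with vehicle, 157.0, 168.9 and 80.9 with gRc, 138.2, 114.3 and 141.8 with H2O2 and 104.7, 97.2 and 131.6 with gRc + H2O2. In both genes vehicle replicate 3 and gRc replicate 3, the libraries at the far end of the first component, were the lowest of their groups. Acadl (long-chain dehydrogenase) stood at 63.0, 113.7 and 145.1 CPM with vehicle, 113.8, 89.8 and 141.0 with gRc, 109.6, 119.5 and 89.5 with H2O2 and 122.6, 147.3 and 119.6 with gRc + H2O2. There replicate 3 was the highest of both groups without H2O2, so the spread within these groups ran in opposite directions for Acadl and for Acadm and Acadvl.

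Without the 3 end libraries, which leaves vehicle with 1 library and assumes that it varies like the rest, Acadm (log2 -0.82) and Acadvl (-0.56) were called as lower in gRc + H2O2 than in gRc. With all libraries their values were -0.53 (SE 0.30) and -0.29 (SE 0.29). Hadha, the alpha subunit of the trifunctional protein, varied least in CPM, at 154.9, 183.1 and 201.4 CPM with vehicle, 181.5, 173.7 and 194.8 with gRc, 144.6, 157.6 and 154.2 with H2O2 and 174.4, 179.5 and 164.0 with gRc + H2O2. In TPM, Hadha varied more, from 112.2 to 280.4 within the gRc libraries. Its log2 fold change for H2O2 against vehicle was -0.24 (SE 0.13), and the groups overlapped through vehicle replicate 1.

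**Figure D2:**
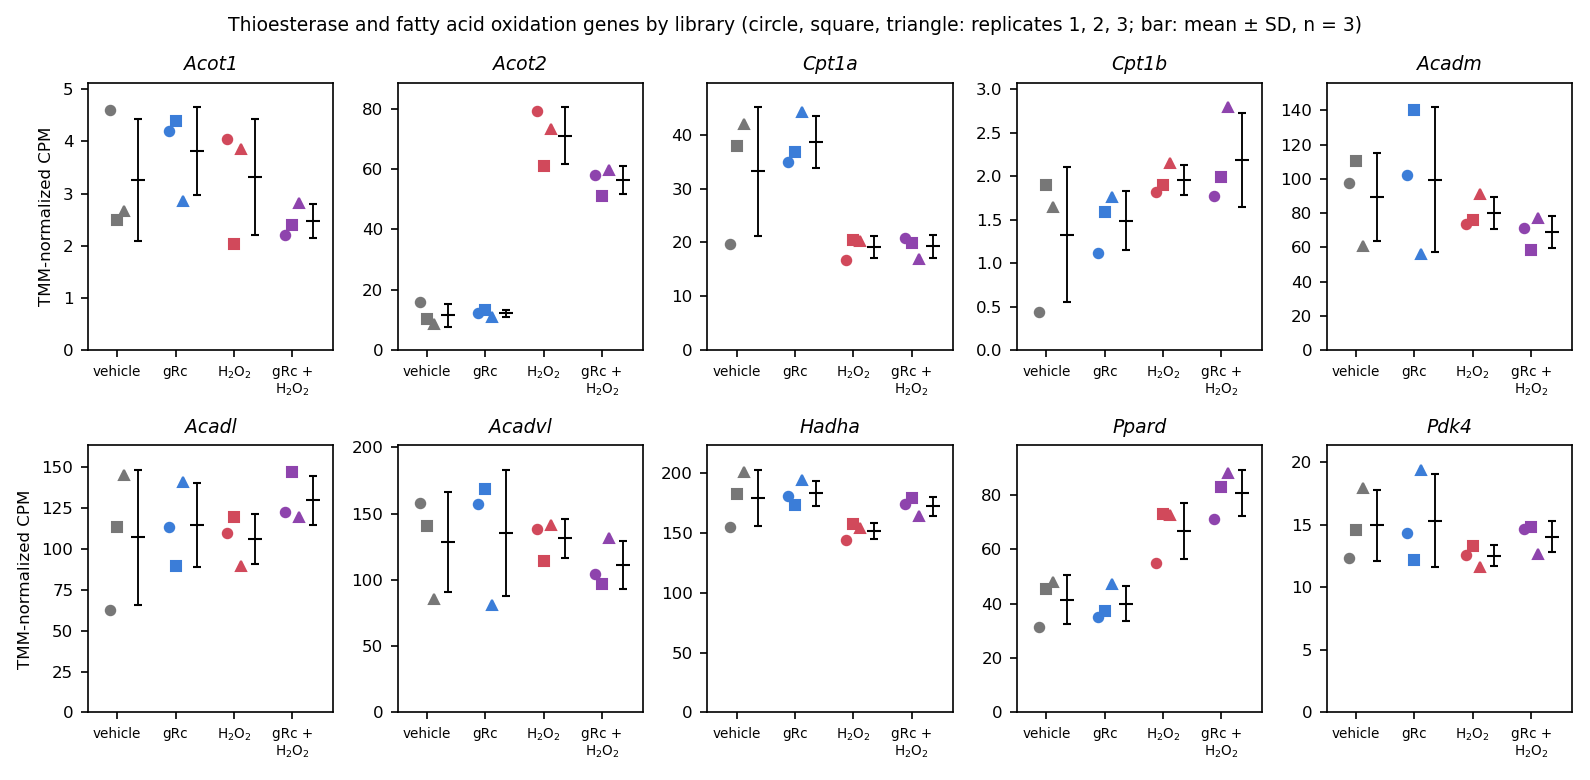
TMM-normalized CPM of the 10 genes in each library, by group; symbols are replicates 1, 2 and 3, bars the mean ± SD (n = 3), and each panel has its own axis from 0. Acot2 and Ppard are higher in all 6 libraries with H2O2 than in all 6 without it, Cpt1a is lower in them than in 5 of the 6, and the other genes overlap.

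Ppard rose with H2O2 in both backgrounds. It stood at 31.2, 45.3 and 47.9 CPM with vehicle, 35.2, 37.3 and 47.3 with gRc, 54.8, 72.7 and 72.5 with H2O2 and 71.2, 82.8 and 87.9 with gRc + H2O2. All libraries with H2O2 were above all without it. The rise was 1.61-fold against vehicle (log2 0.68, SE 0.19) and 2.02-fold for gRc + H2O2 against gRc (log2 1.01, SE 0.20). The second call held in 19 of 19 alternatives and the first in 11 of 19: it was lost without vehicle replicate 1 (0.52) or 2 (0.75), without H2O2 replicate 2 (0.61) or 3 (0.61), without the 3 end libraries (0.55), with no filter (0.67), with only the 2 groups in the fit (0.67) and with a correction for GC content (0.68). Ppard transcripts are rich in GC, at the 89.6th percentile of the genes tested.

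Pdk4, a target of PPARs in muscle, showed no such rise. It stood at 12.3, 14.6 and 18.0 CPM with vehicle, 14.4, 12.2 and 19.4 with gRc, 12.6, 13.3 and 11.6 with H2O2 and 14.7, 14.9 and 12.7 with gRc + H2O2. The log2 fold changes with H2O2 were -0.26 (SE 0.20) and -0.12 (SE 0.20) from counts, and the CPM of the groups overlapped in both. In TPM, Pdk4 stood at 5.46 to 6.73 with gRc + H2O2, below the 7.76 to 13.37 with gRc. The TPM of H2O2 (7.05 to 8.25) and vehicle (6.92 to 11.21) overlapped. Whether Pdk4 differed from Ppard in its change was not tested.

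**Figure D3:**
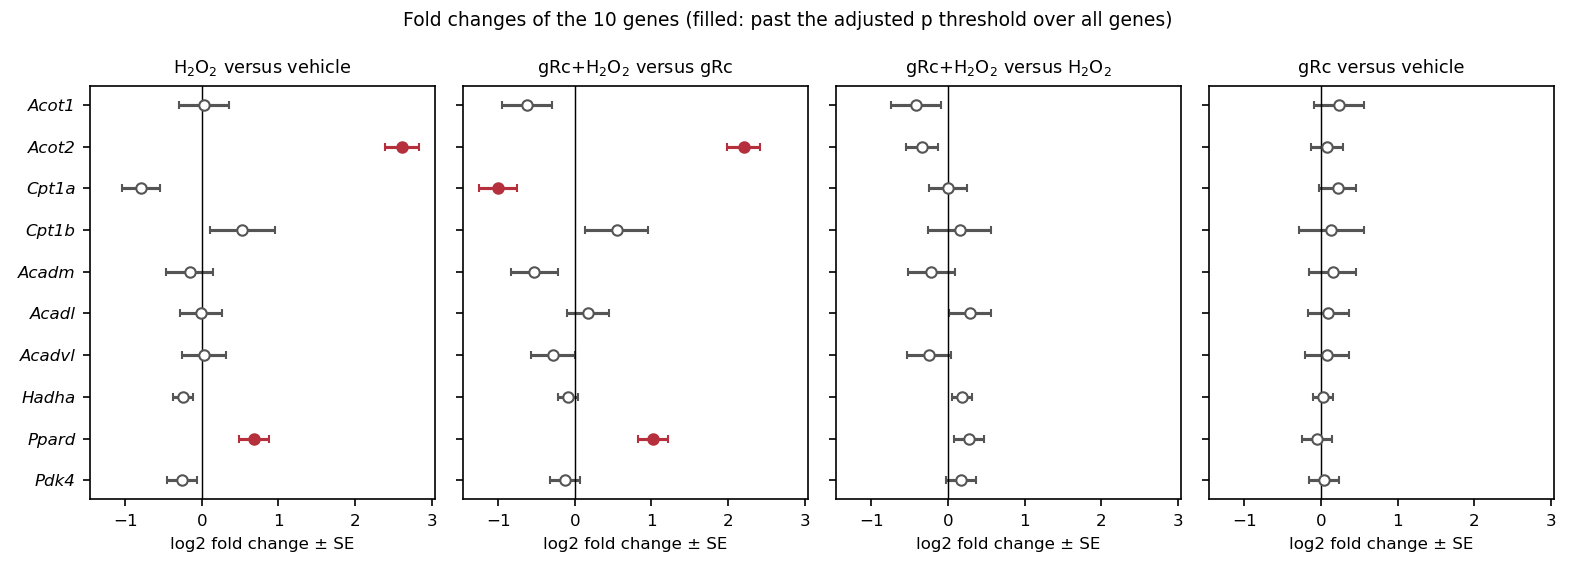
Log2 fold change ± SE of the 10 genes in 4 comparisons (edgeR, all 12 libraries in 1 fit); filled points passed an adjusted p of 0.05 over all 14838 genes. Filled points are Acot2 and Ppard above 0 in both comparisons that add H2O2, and Cpt1a below 0 in gRc + H2O2 against gRc, with no filled point in the comparisons that add gRc.

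For H2O2 against vehicle, 2 of the 10 genes were called at an adjusted p of 0.05 from edgeR's quasi-likelihood test, beside 15.7% of all genes tested. For gRc + H2O2 against gRc, 3 of 10 were called, beside 15.7% of all genes. The groups did not overlap for 2 of 10 genes in the first comparison, beside 31.1% of all genes, and for 5 of 10 in the second, beside 38.7%. Since the genes were chosen with these values known, nothing is read from these counts. The median log2 fold change of all genes was -0.06 and -0.04 in these comparisons.

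Pretreatment with gRc changed none of the 10 genes past the threshold, before H2O2 or alone. For gRc + H2O2 against H2O2, 0 of the 10 genes were called, with log2 fold changes from -0.42 to 0.29, beside 0% of all genes by edgeR; 122 of all genes had an unadjusted p under 0.05, none of the 10 among them, and DESeq2 called 2 genes. The groups did not overlap for 3 of the 10 genes, beside 15.3% of all genes. Acot2 was lower in all 3 pretreated libraries (log2 -0.34, SE 0.21), and Acadl (0.29, SE 0.27) and Hadha (0.18, SE 0.13) were higher in all 3. For gRc against vehicle, 0 of 10 were called, beside 0% of all genes, with values from -0.05 to 0.24 and every pair of groups overlapping, beside 1.61% of all genes that did not overlap. Of all genes, 74 had an unadjusted p under 0.05 in that comparison, again none of the 10. The interaction, which asks whether the response to H2O2 differed with gRc, called 0 of 10 genes and 0% of all genes (87 at an unadjusted p under 0.05). It was -0.41 (SE 0.30) for Acot2, 0.33 (SE 0.27) for Ppard, -0.21 (SE 0.34) for Cpt1a and -0.65 (SE 0.46) for Acot1.

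Per transcript length the 10 genes spanned a wide range in vehicle myotubes. The mean TPM was 179.6 ± 80.8 (SD, n = 3) for Hadha, 145.5 ± 76.1 for Acadm, 112.0 ± 38.4 for Acadvl and 96.2 ± 32.2 for Acadl, and the ranges of neighbours in this order overlapped. Ppard followed at 29.0 ± 4.73 TPM, apart from Acadl above it and from Cpt1a below it at 11.8 ± 4.56. Pdk4 at 9.45 ± 2.25 TPM overlapped with Cpt1a above and with Acot2 below at 8.34 ± 2.34. Acot1 at 3.40 ± 0.979 TPM was apart from Acot2 and overlapped with Cpt1b at 1.98 ± 1.35. The muscle form of CPT1 stood at the bottom of the order, under Cpt1a with ranges that did not overlap.

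The effective length, a measure the choice of genes did not use, differed between libraries for some of them. RSEM gives it per gene as the mean number of positions a fragment can start from, weighted by the estimated shares of the gene's transcripts, so it moves with the transcripts that reads were assigned to. Acot1, Acot2 and Cpt1a have 1 transcript each in the reference annotation and varied by at most 1.05 times between the lowest and the highest library. Cpt1b varied 4.68 times, Hadha 2.93 times, Pdk4 2.19 times, Ppard 1.99 times and Acadm 1.79 times. Pdk4, with 3 transcripts, had an effective length of 3264 to 3281 bases in the gRc + H2O2 libraries and of 2254 to 2378 bases in the H2O2 libraries, which did not overlap. With gRc alone it was 1939 to 2893 bases and with vehicle 1504 to 3289 bases, which overlapped. Ppard had 2349 to 2780 bases with gRc + H2O2 and 1677 to 2124 bases with H2O2, which also did not overlap. The other 8 genes overlapped between these groups, so 2 of 10 were apart beside 11.7% of all genes tested. Both shares include genes with 1 transcript, such as Acot1, Acot2 and Cpt1a. Their effective length follows the fragment length alone, which overlapped between these groups. With 3 libraries against 3 an exact permutation test cannot go below 0.10, and no test was made.

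**Figure D4:**
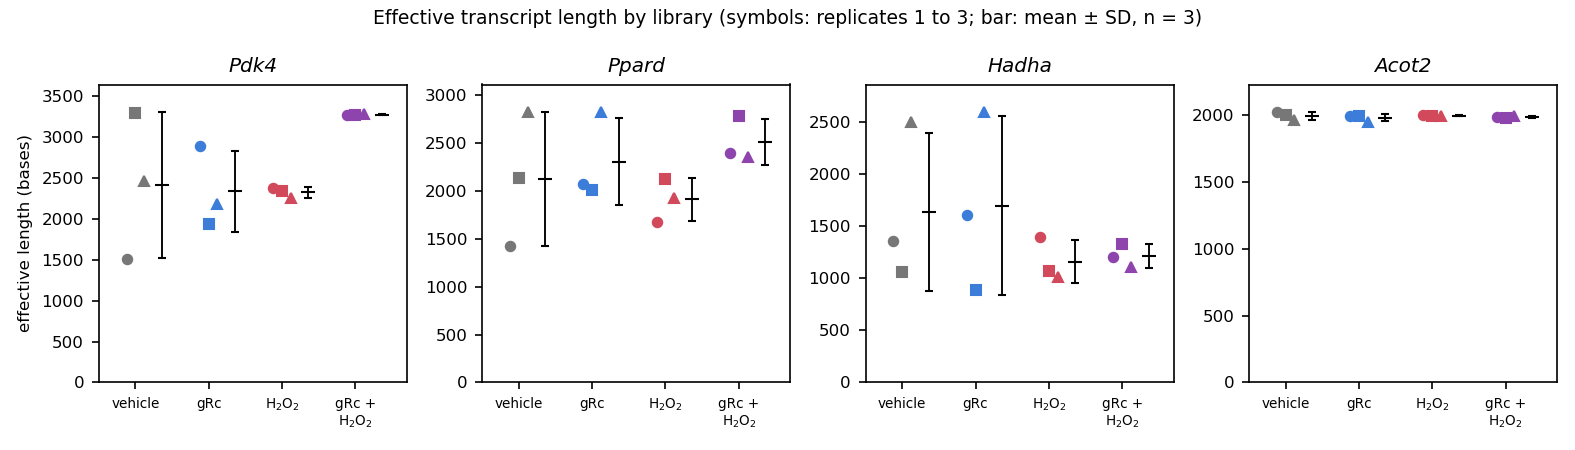
Effective length in bases, as deposited, for Pdk4, Ppard, Hadha and Acot2 in each library; symbols are replicates 1 to 3 and bars the mean ± SD (n = 3). The gRc + H2O2 libraries sit at 3264 to 3281 bases for Pdk4, above the 2254 to 2378 bases of H2O2, while Acot2 stays between 1950 and 2021 bases.

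These lengths turned the sign of some small differences. For gRc + H2O2 against H2O2, Pdk4 was 0.17 (SE 0.20) on the log2 scale from counts and -0.32 with effective-length offsets, and Ppard was 0.27 (SE 0.19) and -0.11. For H2O2 against vehicle, Hadha was -0.24 from counts and 0.13 with the offsets, and Acadm was -0.16 (SE 0.30) and 0.20. For gRc + H2O2 against gRc, Pdk4 kept its sign but went from -0.12 from counts to -0.65 with the offsets. None of these values was called on either scale. The values of Acot2 and Cpt1a, with 1 transcript each, could hardly move with the offsets, so their unchanged sign says nothing about length. Ppard, whose length did vary, was 0.80 for H2O2 against vehicle and 0.89 for gRc + H2O2 against gRc with the offsets, both called.

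Beyond these 10 genes, 87 genes of the pathway were listed by role and 76 passed the filter. This list, too, was drawn up with earlier results of these data known. Its counts, medians and adjusted p-values, here and below, are therefore a description and no independent support. For H2O2 against vehicle 4 rose and 9 fell (13 of 76, or 17.1%, beside 15.7% of all genes), and the median log2 fold change was -0.26 against -0.06 for all genes. For gRc + H2O2 against gRc 4 rose and 9 fell as well, with a median of -0.31 against -0.04. In each comparison 56 of 76 were below 0, beside 8040 of all 14838 genes in the first and 7857 in the second. These comparisons share no library, although same-numbered vehicle and gRc libraries deviated together, and 9 genes were called in both, which is 69.2% of the 13 in each, beside 77.0% and 76.7% of all genes called. In both comparisons that add gRc, 0 of 76 were called.

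**Figure D5:**
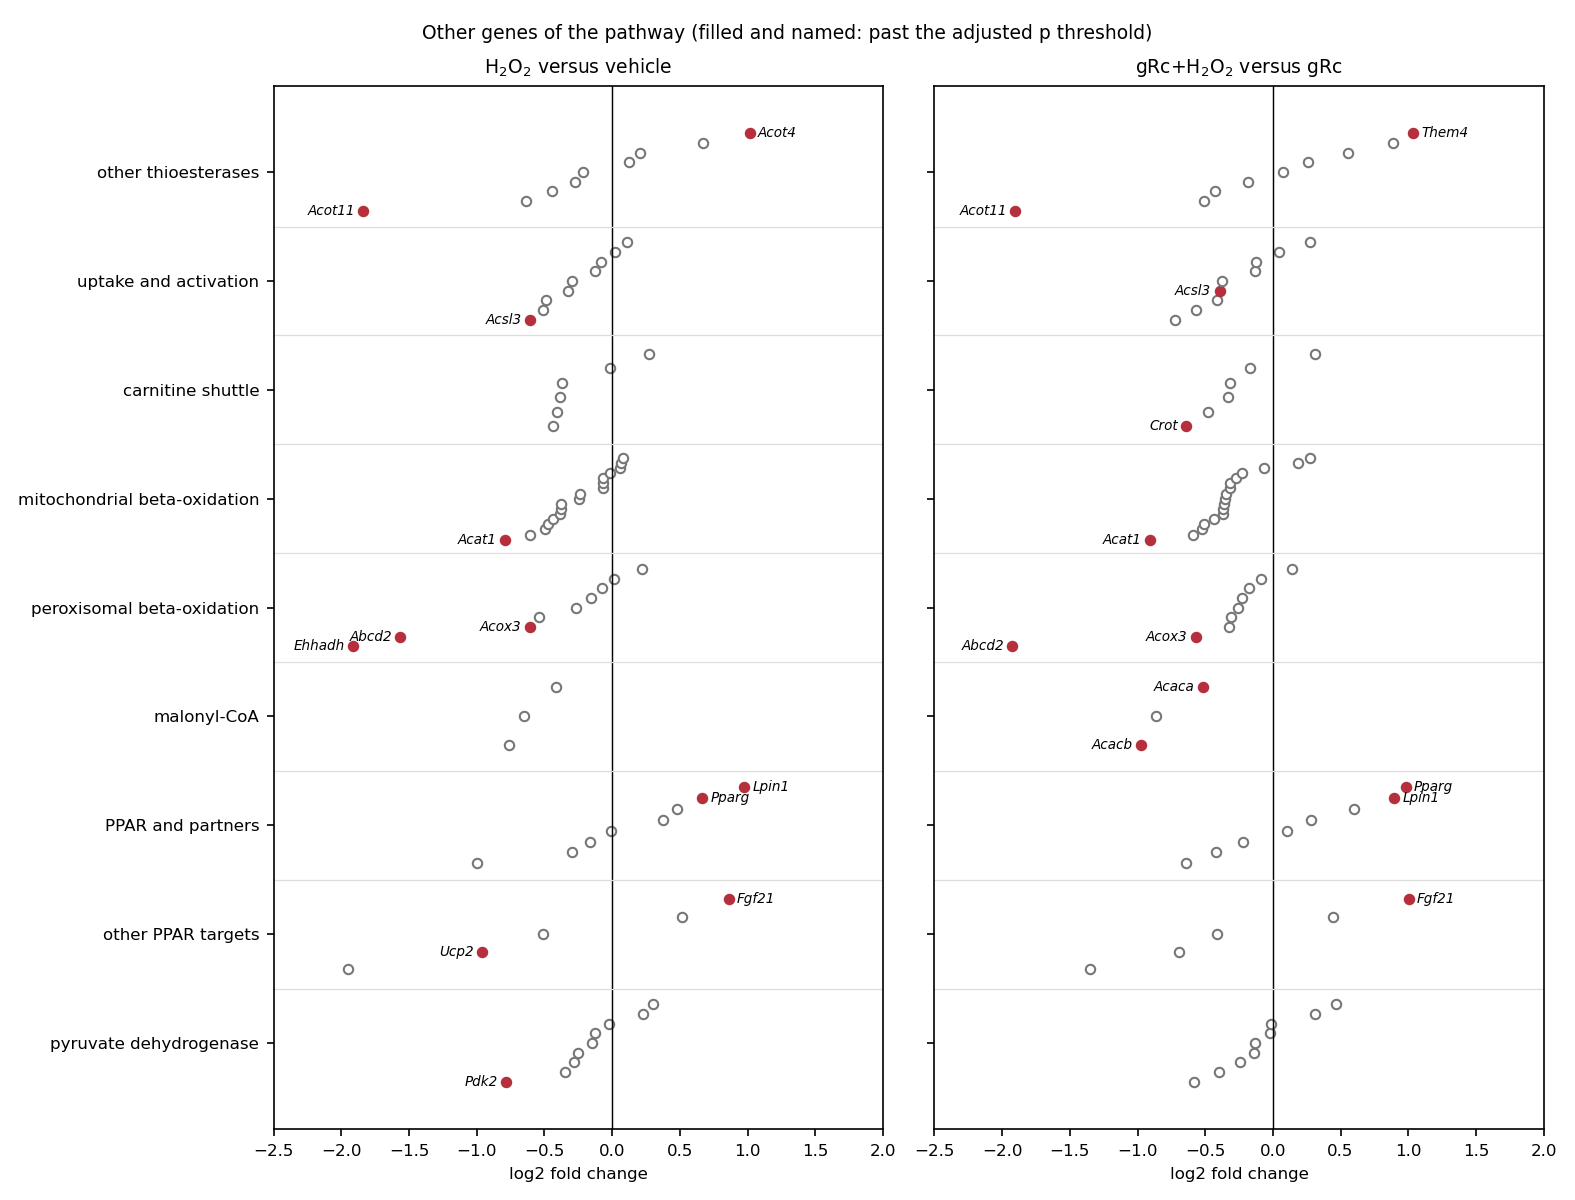
Log2 fold change of other pathway genes by role, for H2O2 against vehicle and gRc + H2O2 against gRc; filled, named points passed an adjusted p of 0.05 over all genes. Most points lie below 0 in the carnitine shuttle and in beta-oxidation (14 and 15 of 17 mitochondrial genes). The same holds for malonyl-CoA (3 of 3), pyruvate dehydrogenase (7 of 9) and uptake and activation (7 of 9) in both comparisons. Of all 14838 genes, 8040 and 7857 were below 0. The filled points above 0 are thioesterases, Pparg, Lpin1 and Fgf21.

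Among the other thioesterases 1 of 9 rose and 1 fell in each comparison. Acot11, an acyl-CoA thioesterase known from brown fat, stood at 14.8, 8.61 and 6.67 CPM with vehicle, 10.3, 9.42 and 7.51 with gRc, 2.98, 2.31 and 3.10 with H2O2 and 2.43, 2.11 and 2.72 with gRc + H2O2. Acot11 thus went the other way from Acot2, with log2 fold changes of -1.84 (SE 0.29, edgeR adjusted p = 0.00213) and -1.90 (SE 0.29, edgeR adjusted p = 0.00168), and both calls held in 19 of 19 alternatives. Them4 rose for gRc + H2O2 against gRc (log2 1.04, SE 0.29, edgeR adjusted p = 0.0335); the call was lost without any of 5 of the 6 libraries compared and held only without gRc replicate 3. Acot4, which lies in the Acot cluster and was named after its values were seen, rose for H2O2 against vehicle (log2 1.02, SE 0.31, edgeR adjusted p = 0.0474) on 6.56 to 21.0 expected counts per library. Of the other cluster genes, Acot3 and Acot5 had at most 2 counts in any library, and Acot6 stood at 39 to 122 counts and was not called.

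In beta-oxidation the median log2 fold change of 17 mitochondrial genes was -0.25 with H2O2 against vehicle and -0.35 with gRc + H2O2 against gRc, and 1 of them was called. Acat1, the mitochondrial thiolase that also serves ketone bodies, stood at 51.1, 51.4 and 44.0 CPM with vehicle, 46.5, 60.03 and 37.9 with gRc, 28.9, 26.7 and 29.0 with H2O2 and 24.8, 27.1 and 25.0 with gRc + H2O2. Acat1, the gene called, had log2 fold changes of -0.79 (SE 0.16, edgeR adjusted p = 0.00841) and -0.91 (SE 0.16, edgeR adjusted p = 0.00422), and the calls held in 19 of 19 alternatives. Of 10 peroxisomal genes, 4 fell with H2O2 against vehicle (median -0.40) and 3 with gRc + H2O2 against gRc (median -0.28). Of all 14838 genes tested, 1164 fell in the first comparison and 1209 in the second. Acox3, a peroxisomal acyl-CoA oxidase, went from 48.5 to 52.9 CPM with vehicle to 31.9 to 34.3 with H2O2 (log2 -0.61, SE 0.11, edgeR adjusted p = 0.00453) and from 47.9 to 54.2 with gRc to 32.6 to 35.7 with gRc + H2O2 (log2 -0.57, SE 0.11, edgeR adjusted p = 0.00612).

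Abcd2 and Ehhadh, named after their values were seen, were also among the peroxisomal genes that fell, Abcd2 in both comparisons at 0.305 to 1.52 CPM and Ehhadh for H2O2 against vehicle alone at 0.0466 to 0.776 CPM. In the carnitine shuttle 0 of 6 were called with H2O2 against vehicle, and Crot, the peroxisomal carnitine octanoyltransferase, fell in gRc + H2O2 against gRc (log2 -0.64, SE 0.20, edgeR adjusted p = 0.0487). That Crot call was lost without any 1 of the 6 libraries compared.

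Malonyl-CoA, the inhibitor of CPT1, is made by the acetyl-CoA carboxylases and removed by Mlycd. All 3 genes were below 0 in both comparisons (medians -0.65 and -0.86), with 0 of 3 called for H2O2 against vehicle. Acacb, the form tied to CPT1 in muscle, fell in gRc + H2O2 against gRc (log2 -0.97, SE 0.24, edgeR adjusted p = 0.0188), as did Acaca (-0.52, SE 0.14, edgeR adjusted p = 0.0282). The Acacb call was lost without gRc replicate 1 or 2 or gRc + H2O2 replicate 1 or 2, and the Acaca call without any 1 of the 6 libraries. Acsl3, which activates long-chain fatty acids, fell in both comparisons, by 0.61 (SE 0.12, edgeR adjusted p = 0.00686) and by 0.39 (SE 0.12, edgeR adjusted p = 0.0467) on the log2 scale. The second of the Acsl3 calls was lost without any 1 of the 6 libraries.

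Among PPAR genes and their partners 2 of 8 rose in both comparisons. Of all 14838 genes tested, 1159 rose with H2O2 against vehicle and 1123 with gRc + H2O2 against gRc. Pparg, the PPAR of fat cells, stood at 3.88, 3.77 and 4.57 CPM with vehicle, 3.20, 4.02 and 5.01 with gRc, 5.97, 6.61 and 6.79 with H2O2 and 7.97, 8.30 and 7.88 with gRc + H2O2. The log2 fold changes of Pparg were 0.66 (SE 0.18, edgeR adjusted p = 0.0326) and 0.98 (SE 0.18, edgeR adjusted p = 0.00527); the first call was lost without vehicle replicate 2 or any of the H2O2 libraries and the second held in 19 of 19 alternatives. Of the other adipocyte markers, Adipoq, Fabp4, Lep and Plin1 had between 0 and 13 counts per library. Lpin1, a phosphatidate phosphatase and PPAR coactivator, rose by 0.97 (SE 0.16, edgeR adjusted p = 0.00246) and 0.89 (SE 0.16, edgeR adjusted p = 0.00368), held in 19 of 19 alternatives in each. Ppara did not pass the filter.

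Of 5 further PPAR targets that passed the filter, Fgf21, a hormone gene of fasting and mitochondrial stress, rose in both comparisons. Fgf21 stood at 18.7, 16.2 and 30.7 CPM with vehicle, 22.7, 16.5 and 28.9 with gRc, 45.0, 40.5 and 33.8 with H2O2 and 46.1, 50.7 and 39.8 with gRc + H2O2. Its log2 fold changes were 0.86 (SE 0.26, edgeR adjusted p = 0.0478) and 1.00 (SE 0.26, edgeR adjusted p = 0.0253). Leaving out any of the 6 libraries compared but vehicle replicate 3 ended the first Fgf21 call, which held in 6 of 19 alternatives, and leaving out gRc replicate 1 or 2 or gRc + H2O2 replicate 1 or 2 ended the second. Ucp2, an inner-membrane carrier, went the other way for H2O2 against vehicle (log2 -0.96, SE 0.26, edgeR adjusted p = 0.0278), a call lost without vehicle replicate 3 or any of the H2O2 libraries. Pdk2, a sister kinase of Pdk4, fell for H2O2 against vehicle (log2 -0.78, SE 0.21, edgeR adjusted p = 0.0302) and was the single gene called among 9 of pyruvate dehydrogenase; that call held without vehicle replicate 1 and was lost without any other library compared. For these genes vehicle replicates 1 and 3 lay far apart, with Ucp2 at 56.4 and 112.1 CPM and Pdk2 at 21.7 and 37.1 CPM.

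Of the thioesterase neighbours Acot2 was called with H2O2 and Acot1 was not, and whether their changes differed was not tested. Their upstream sequences are shown, from 250 to 21 bases before the RefSeq start (GRCm38.p6). Both lie on the plus strand of chromosome 12, at chr12:84009252-84009481 for Acot1 and chr12:83987611-83987840 for Acot2. Capitals mark CCAAT or its complement ATTGG.
Acot1 upstream: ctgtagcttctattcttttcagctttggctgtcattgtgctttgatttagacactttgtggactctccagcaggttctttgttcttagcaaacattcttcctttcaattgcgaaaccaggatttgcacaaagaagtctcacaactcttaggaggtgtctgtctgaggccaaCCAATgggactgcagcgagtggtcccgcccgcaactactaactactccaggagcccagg
Acot2 upstream: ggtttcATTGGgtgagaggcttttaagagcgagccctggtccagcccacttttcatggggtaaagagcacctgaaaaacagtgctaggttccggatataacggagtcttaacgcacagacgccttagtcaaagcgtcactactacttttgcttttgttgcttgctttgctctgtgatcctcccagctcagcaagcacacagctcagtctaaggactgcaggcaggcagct

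Windows of 250 bases before the start were searched on both strands for 8 motifs in 9 of the 10 genes, since Cpt1b had no entry. CCAAT occurred in 5 (Acot1, Acot2, Cpt1a, Ppard and Pdk4), beside 33.8% of 32851 promoters. The PPAR half-site AGGTCA occurred in Acadm, Acadvl and Cpt1a, beside 14% of promoters, and the full PPAR element, a direct repeat that holds this half-site on either side of a single base, in 0 of 9, beside 0.0335%. TGANTCA (AP-1, 6.75% of promoters), TGATGNAA (C/EBP-ATF, 3.45%), TGACNNNGC (antioxidant element, 10.2%), TGACGTCA (cyclic AMP element, 1.55%) and the TATA box in the form TATAAA (12.4%) occurred in 0 of 9. A match is a description of letters in this window and not a site.

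By Pearson correlation of log2 CPM over the 12 libraries, the genes most like Acot2 among 10718 compared were Vldlr (0.996), Xpot (0.994) and Trib3 (0.994). Those most like Acot1 were Zfp90 (0.915), Sra1 (0.903) and Actn2 (0.892), and those most like Pdk4 were Zdhhc9 (0.987), Ocrl (0.987) and Fads1 (0.983). Acot1 and Acot2 themselves correlated at -0.20. These values describe the 12 libraries, which share groups, depth and base composition.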

How the data were processed

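According to the deposited records, the authors trimmed the reads with Trim Galore, aligned them to GRCm38 (mm10) with STAR (2.7.3a) and gave expected counts per gene with RSEM (1.3.3); the expected counts are not normalized. The authors' TPM are scaled within each library, and the deposited effective lengths are in bases. Whether strand was used in counting is not given in the sources used here, so antisense and overlapping genes are uncertain.

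Expected counts were rounded and tested with edgeR 4.0.16 (R 4.3.3; TMM, filterByExpr, quasi-likelihood F test, 12 libraries in 1 fit, Benjamini-Hochberg over 14838 genes, threshold 0.05). SE was derived from the F statistic and the log2 fold change. The alternatives were DESeq2 1.42.0, RLE size factors, no filter, a filter of at least 10 counts in every library, fitting the 2 compared groups alone, a replicate block, effective-length offsets, limma 3.58.1 on log2(TPM + 0.5) and log2(TPM + 0.1), a GC correction without and with the block, 3 end libraries left out, each library left out, and Acot1 and Acot2 summed. The code was tested on simulated data. Library totals of 19274762 to 31409066 limit the precision of genes with few counts, such as Acot1 and Cpt1b. No library duplicated another.

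The genes, the lists and the rule for naming were chosen with earlier results of these data known. Named were the 10 genes, pathway genes passing in a comparison at an average log2 CPM of 0 or more, and the 3 genes most correlated with Acot1, Acot2 and Pdk4 at an average of 2 or more. Deviations of same-numbered gRc and vehicle libraries from their group means correlated at 0.460, 0.271 and 0.860. Whether a replicate number marks a shared batch is not known. FPKM columns were not used here, and 1 listed pathway gene, counted but not drawn, is not reported here. Sequences come from GENCODE M21 and RefSeq (GRCm38.p6); upstream windows matched 9 of the 10 genes.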

Additional observations from a re-analysis of the deposited data

How the results depend on the processing

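For H2O2 against vehicle, members called went from 2 to 1 with no filter and to 1 with only the 2 groups in the fit, and to 3 with DESeq2 (3081 of all genes), RLE size factors, at least 10 counts in every library, or GC correction with the replicate block. Pathway genes called went from 13 to 3 and all genes from 2323 to 739 with only the 2 groups, and all genes to 1492 and 1482 with limma on log2(TPM + 0.5) and log2(TPM + 0.1). Leaving out 1 library gave 1 to 2 of the 10 genes, 7 to 16 pathway genes and 1267 to 3108 of all genes. For gRc + H2O2 against gRc, effective-length offsets gave 8 pathway genes (13 in the main analysis) and 1550 of all genes (2332), and limma gave 1459 and 1473 of all genes. Without vehicle replicates 1 and 3 and gRc replicate 3 there were 5 of the 10 genes, 31 pathway genes and 5153 of all genes; leaving out 1 library gave 2 to 3, 6 to 11 and 1186 to 2025. DESeq2 called 2 of all genes for gRc + H2O2 against H2O2. Fits with fewer libraries gave lower counts in some cases and higher counts in others. For H2O2 against vehicle, 3108 of all genes were called without vehicle replicate 1. The cause of these changes was not tested.

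With the replicate block, 2, 0, 0 and 3 of the 10 genes were called for H2O2 against vehicle, gRc + H2O2 against H2O2, gRc against vehicle and gRc + H2O2 against gRc. The block gave 12, 0, 0 and 13 pathway genes and 2305, 0, 0 and 2354 of all genes, and among the named pathway genes it ended the call of Fgf21 for H2O2 against vehicle and of Acsl3 for gRc + H2O2 against gRc. Deviations of same-numbered libraries correlated at 0.440, 0.294 and -0.283 for H2O2 and vehicle. They correlated at 0.0802, 0.402 and 0.309 for gRc + H2O2 and H2O2, and at 0.0206, -0.496 and -0.550 for gRc + H2O2 and gRc. With 3 libraries per group, these values cannot decide whether same-numbered libraries shared a batch. Of the pathway genes named by the rule, 3 of 10 kept the call in every alternative for H2O2 against vehicle and 5 of 12 for gRc + H2O2 against gRc. No called value changed sign. Among the 10 genes depth limits Acot1 and Cpt1b most; calls on Acot4, Abcd2 and Ehhadh rest on at most 44 counts per library.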
